A study of Homo sapiens with 6 samples.

Results

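The 6 genes ATM, CHEK2, ABL1, MRE11A, NBN and RBBP8 were taken by their symbols from a quantitative PCR array of 84 cell cycle genes. All 6 were found, so they are 6 of the 84. Together they hold the kinase ATM, its target kinase CHK2 (CHEK2), the tyrosine kinase ABL1, and 3 proteins that work on broken DNA ends. The array was run on HMC-1.2 cells, a human neoplastic mast cell line that the labels give as carrying the D816V and V560G mutations of KIT, a receptor tyrosine kinase of mast cells. All groups therefore share both KIT mutations and 1 cell line. The cells were cultured for 24 h with 5 µM SPHK1-I (SKI-178, an inhibitor of sphingosine kinase 1), with 50 µM SPHK2-I (ABC294640, an inhibitor of sphingosine kinase 2) or with vehicle (0.1% DMSO), with 2 samples in each group. The doses of the inhibitors differ, so values with both stand side by side and are not at a matched dose. None of 9 mast cell marker genes is on the array (0 of 9), so the cell type could not be checked from these data.

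ATM is a kinase that is switched on at DNA breaks, where the complex of MRE11 and nibrin (NBN) binds the ends and recruits it. ATM phosphorylates CHK2, which then acts on cell cycle phosphatases and on transcription factors, and it also phosphorylates ABL1, a tyrosine kinase found in both cytoplasm and nucleus. MRE11 (MRE11A on the array) is a nuclease, and CtIP, the product of RBBP8, works with it to trim the ends so that repair by homologous recombination can begin. These steps are controlled largely by phosphorylation, which an mRNA array does not measure. The comparisons ask how the mRNA of these genes stood in cells with each inhibitor and how the inhibitors differed.

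Promoter sequences are shown for CHEK2, called lower with both inhibitors, and for ABL1 and RBBP8, called different between the inhibitors. Each is the stretch of 250 bases before the gene's start in RefSeq (GRCh38.p14), 5′ to 3′ on the gene's strand. They lie at chr22:28741821-28742070 on the minus strand for CHEK2, at chr9:130835004-130835253 on the plus strand for ABL1 and at chr18:22933078-22933327 on the plus strand for RBBP8, the first of 2 starts in the table. Capitals mark matches to the CCAAT box, the binding sequence of the factor NF-Y.
CHEK2: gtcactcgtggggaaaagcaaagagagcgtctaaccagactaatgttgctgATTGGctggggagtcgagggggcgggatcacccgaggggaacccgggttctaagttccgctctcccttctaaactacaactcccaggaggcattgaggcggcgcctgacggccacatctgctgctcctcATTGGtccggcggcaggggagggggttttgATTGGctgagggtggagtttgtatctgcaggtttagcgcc
ABL1: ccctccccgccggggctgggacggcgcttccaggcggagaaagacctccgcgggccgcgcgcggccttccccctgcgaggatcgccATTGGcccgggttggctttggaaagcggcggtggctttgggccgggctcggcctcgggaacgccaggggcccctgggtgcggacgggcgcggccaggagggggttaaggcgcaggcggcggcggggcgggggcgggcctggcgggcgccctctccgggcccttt
RBBP8: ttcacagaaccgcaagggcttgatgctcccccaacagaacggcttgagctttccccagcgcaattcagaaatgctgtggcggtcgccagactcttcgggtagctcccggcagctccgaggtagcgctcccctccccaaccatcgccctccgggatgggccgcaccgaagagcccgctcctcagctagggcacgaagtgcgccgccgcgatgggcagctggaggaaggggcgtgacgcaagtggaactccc
The letters CCAAT on either strand (ATTGG on the strand shown) occur 3 times in the CHEK2 stretch, once in that of ABL1 and in neither RBBP8 stretch, and 32.0% of all 35116 promoter stretches of this length in the table hold them. None of the 3 genes held an E2F site (TTTCCCGC, TTTCGCGC, TTTGCCGC or TTTGGCGC, in 2.79% of all stretches), a cell cycle homology region (TTTGAA or TTCGAA, in 14.3%) or an ETS site (CCGGAAG, in 8.52%) on either strand, and no matches overlapped. Stretches of 5 members were searched, among them those of MRE11A and ATM, which were not called. CCAAT occurred 2 times for MRE11A and once at each of 2 starts of ATM. MRE11A also held 1 ETS site, and the first ATM start 1 cell cycle homology region and 1 ETS site. A match or its absence describes these letters and says nothing of factor binding.

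The array reports a threshold cycle (Ct) for each gene, which is a log2 quantity and rises as the amount of mRNA falls. From each Ct the deposited ΔCt takes away the average of 4 reference genes of that sample (B2M, GAPDH, HPRT1, RPLP0). The level given here is −ΔCt, in log2 units, or its power of 2 as a percentage of the level of those reference genes. The sources used here give no assay efficiencies, so the order of genes is an order of assay signals. A gene was called higher or lower where limma, fitted over all 84 genes and 6 samples, gave an adjusted p below 0.05. The sources used here do not say whether the 2 samples of a group were separate cultures, so the p-values measure only the spread between samples. The fit shares that spread over the 3 groups, so a p-value for 2 groups also carries the spread of the third. SPHK1-I sample 2 stood apart. Its reference genes averaged a Ct of 24.3 (the remaining 5 samples, 22.1 to 22.7), and 37 of the 84 genes came up later than cycle 30 in it (9 to 13 in the remaining samples). Its 3 positive PCR wells (21.4 cycles, against 21.4 to 21.7) and 3 reverse transcription wells (24.4 cycles, against 24.1 to 24.3) were near those of the other samples. The SPHK1-I samples differed from each other with an SD of 0.48 over the 84 genes on the log2 scale, against 0.13 for the SPHK2-I samples and 0.17 for the vehicle samples. Through the shared fit, the SPHK1-I spread enters every comparison. With only the vehicle and SPHK2-I samples fitted, 4 members and 55 of the 84 genes were called for SPHK2-I, against 1 and 24. With only the vehicle and SPHK1-I samples fitted, 0 members and 13 of the 84 genes were called for SPHK1-I, against 1 and 30. What set SPHK1-I sample 2 apart was not tested. The changes of the members with SPHK1-I and the medians of the gene lists are given with and without sample 2. The genomic DNA control was at the Ct limit of 35 in all 6 samples.

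In vehicle samples, NBN had the highest signal of the 6 genes, followed by RBBP8, MRE11A, CHEK2, ABL1 and ATM, and neighbours in that order did not overlap. NBN averaged −4.23 ± 0.02 and ATM −8.18 ± 0.26 on the −ΔCt scale (SD, n = 2). With SPHK1-I the order was the same, but the samples of CHEK2 (−7.04 ± 0.37) and ABL1 (−7.25 ± 0.37) overlapped. With SPHK2-I, RBBP8 (−4.42 ± 0.05) stood above NBN (−4.75 ± 0.09), and ABL1 (−6.55 ± 0.01) above CHEK2 (−6.89 ± 0.01), with no overlap (SD, n = 2 each). Among the 84 genes ranked from the highest signal, RBBP8 was number 40 with SPHK1-I, 27 with SPHK2-I and 38 with vehicle. ABL1 was number 69, 65 and 69 in the same groups, and ATM was number 80, 78 and 79.

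**Figure D1:**
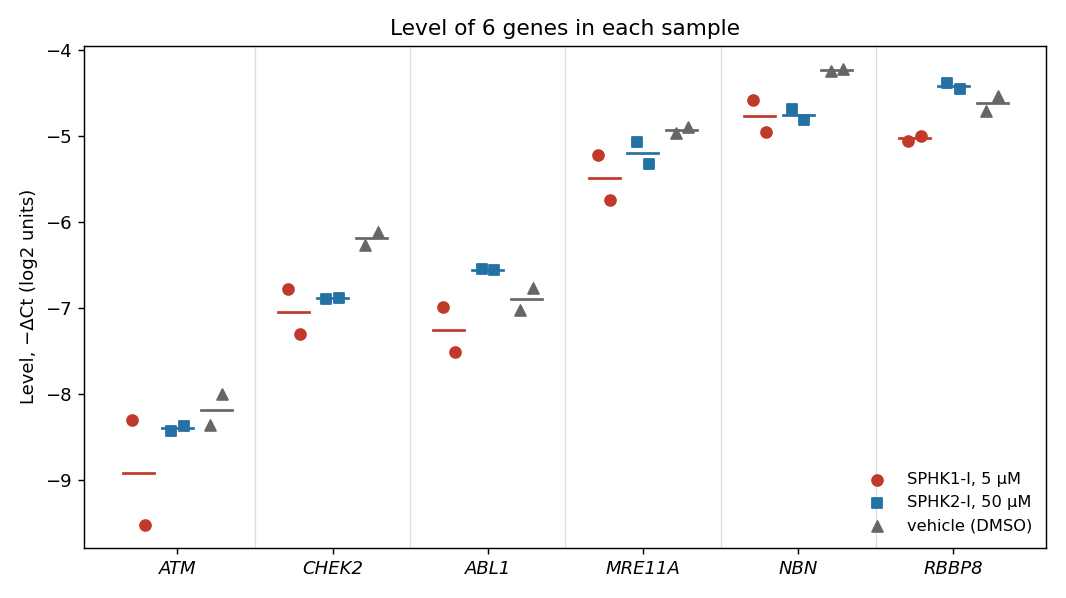
Level of each gene as −ΔCt (log2 units, vertical axis) in each sample, with points for the 2 samples of SPHK1-I, SPHK2-I and vehicle and a short line at their mean. CHEK2, MRE11A and NBN lie lower in all 4 inhibitor samples than in both vehicle samples, while ABL1 and RBBP8 are highest with SPHK2-I.

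CHEK2 was the only 1 of the 6 genes called against vehicle, and it was called lower with both inhibitors. CHK2 is the checkpoint kinase that ATM phosphorylates. CHEK2 stood at 0.912% and 0.634% of the reference level in the SPHK1-I samples, at 0.843% and 0.848% in the SPHK2-I samples and at 1.30% and 1.44% in the vehicle samples. All 4 inhibitor samples were below both vehicle samples, and the SPHK2-I samples lay between the SPHK1-I samples. The change was −0.85 with SPHK1-I (SE 0.20, adjusted p = 0.0166), a level 1.80-fold lower, and −0.70 with SPHK2-I (SE 0.20, adjusted p = 0.0369), 1.62-fold lower, both by limma on the log2 scale. Without SPHK1-I sample 2 the first change was −0.59. The difference of SPHK2-I minus SPHK1-I was 0.15, with a 95% interval of −0.33 to 0.63 (adjusted p = 0.590), and −0.11 without SPHK1-I sample 2.

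Without SPHK1-I sample 1 the CHEK2 change with SPHK1-I was −1.11. A fit with 1 sample left in a group holds no spread within that group, so only effect sizes are given here. Whether the CHEK2 calls held in such fits followed the group that lost a sample, so no call is read from them. Neither CHEK2 call held under all other settings. With either vehicle sample or either SPHK2-I sample left out, the changes were −0.92 to −0.78 with SPHK1-I and −0.77 to −0.63 with SPHK2-I. With only the vehicle and SPHK1-I samples fitted by limma, the call with SPHK1-I ended (adjusted p = 0.0567). With only the vehicle and SPHK2-I samples fitted by limma, the call with SPHK2-I held (adjusted p = 6.3e-08). With B2M left out of the reference, a choice made after seeing the data, the changes were −0.65 with SPHK1-I (adjusted p = 0.0967) and −0.56 with SPHK2-I (adjusted p = 0.117). Over 8 other references the direction stayed, with 3 calls for SPHK1-I (−1.46 to −0.51) and 2 for SPHK2-I (−1.13 to −0.15). With Ct above 30 set to 30, the change with SPHK1-I was −0.0375 (adjusted p = 0.933) and that with SPHK2-I −0.70 (adjusted p = 0.221). This limit moves CHEK2 in SPHK1-I sample 2 from a Ct of 31.63 to 30, which raises its level there by construction. The RefSeq table lists 6 pseudogenes of CHEK2, and the sources used here do not say whether the assay also reads any of them.

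ATM, which phosphorylates CHK2, was the weakest signal and the least certain of the 6. Its Ct was above 30 in all 6 samples, at 30.78 and 33.84 with SPHK1-I, 31.12 and 31.04 with SPHK2-I and 30.61 and 30.06 with vehicle. It was 1 of 9 such genes on the array. Its level was 0.316% and 0.136% of the reference in the SPHK1-I samples, 0.291% and 0.303% in the SPHK2-I samples and 0.304% and 0.392% in the vehicle samples. The SPHK1-I samples lie on both sides of vehicle sample 1, and the SPHK2-I samples lie just below it. The change was −0.73 with SPHK1-I (SE 0.36, adjusted p = 0.159) and −0.22 with SPHK2-I (SE 0.36, adjusted p = 0.659), and neither passed. Without SPHK1-I sample 2 the first was −0.13, and the difference of SPHK2-I minus SPHK1-I was −0.0923, against 0.51 with all samples.

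**Figure D2:**
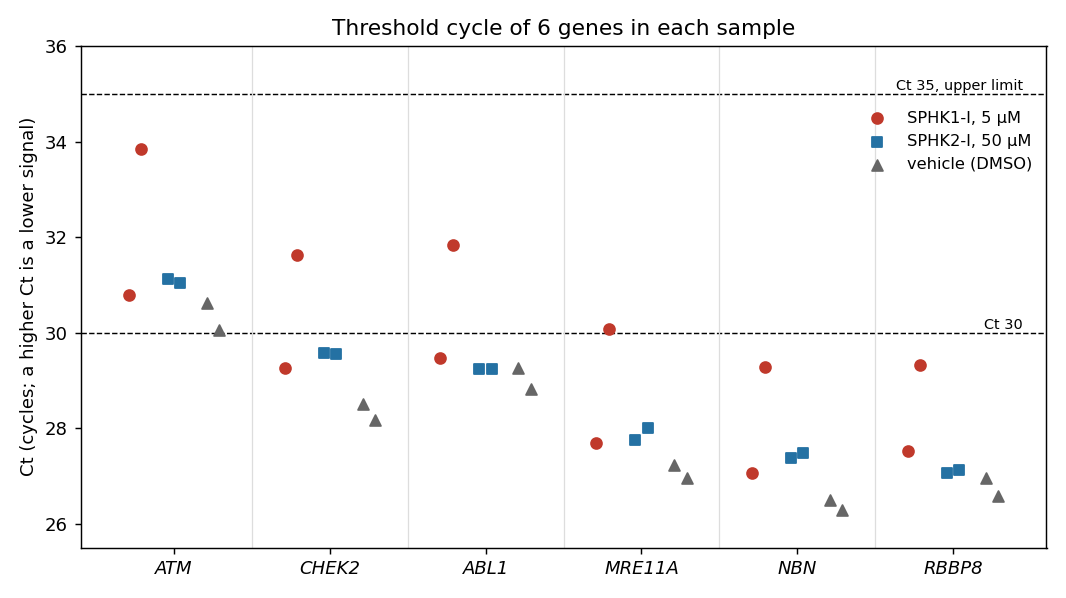
Ct of each gene in cycles (vertical axis, a higher Ct is a lower signal) in each sample of SPHK1-I, SPHK2-I and vehicle, with dashed lines at 30 and at the limit of 35. ATM lies above 30 in all 6 samples, and SPHK1-I sample 2, the higher SPHK1-I point of each gene, also puts CHEK2, ABL1 and MRE11A above 30.

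On SPHK1-I sample 2 alone (sample 1 left out), all 6 members lay below vehicle. Their changes were −1.34 for ATM, −1.11 for CHEK2, −0.82 for MRE11A, −0.72 for NBN, −0.62 for ABL1 and −0.38 for RBBP8. The difference of SPHK2-I minus SPHK1-I then was 1.12 for ATM, 0.42 for CHEK2 and 0.55 for MRE11A. With 1 SPHK1-I sample in the fit, only effect sizes are given.

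Apart from ATM, the only Ct values above 30 were those of SPHK1-I sample 2, at 31.63 for CHEK2, 31.84 for ABL1 and 30.07 for MRE11A. It thus had 4 of the 6 genes above 30, against 1 in each of the other samples.

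ABL1 and RBBP8 were the members that differed between the inhibitors. ABL1 is a tyrosine kinase that ATM can phosphorylate after DNA damage. ABL1 stood at 0.789% and 0.548% of the reference level with SPHK1-I, 1.07% and 1.06% with SPHK2-I and 0.769% and 0.922% with vehicle. The SPHK2-I samples were above all 4 others, and the SPHK1-I samples overlapped with vehicle. ABL1 was 0.70 higher on the log2 scale with SPHK2-I than with SPHK1-I (SE 0.21, adjusted p = 0.0427, 1.62-fold), and 0.43 higher without SPHK1-I sample 2. Against vehicle it was −0.36 with SPHK1-I (SE 0.21, adjusted p = 0.230) and 0.34 with SPHK2-I (SE 0.21, adjusted p = 0.298), and neither passed. Leaving out SPHK1-I sample 2 put the first at −0.0941, and leaving out SPHK1-I sample 1 put it at −0.62. With only the vehicle and SPHK2-I samples fitted by limma, the second was called (0.34, adjusted p = 0.00834). In that fit 13 of the 84 genes were called higher. With only the vehicle and SPHK1-I samples fitted by limma, ABL1 was not called (−0.36, adjusted p = 0.349).

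RBBP8 encodes CtIP, which starts the trimming of broken ends. It stood at 3.01% and 3.14% of the reference level with SPHK1-I, 4.80% and 4.56% with SPHK2-I and 3.83% and 4.33% with vehicle. The 3 groups did not overlap, with SPHK2-I highest and SPHK1-I lowest. RBBP8 was 0.61 higher on the log2 scale with SPHK2-I than with SPHK1-I (SE 0.16, adjusted p = 0.0287, 1.52-fold) and 0.64 higher without SPHK1-I sample 2. Against vehicle, it was −0.41 with SPHK1-I (SE 0.16, adjusted p = 0.0798) and 0.20 with SPHK2-I (SE 0.16, adjusted p = 0.359). The change with SPHK1-I was −0.43 without SPHK1-I sample 2 and −0.38 without SPHK1-I sample 1. RBBP8 was the member whose SPHK1-I samples lay closest, 0.06 apart, against 0.37 to 1.21 for the other 5.

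With only the SPHK1-I and SPHK2-I samples fitted by limma, neither difference was called (adjusted p = 0.115 for ABL1 and 0.0795 for RBBP8). With either vehicle sample or either SPHK2-I sample left out, the differences were 0.69 to 0.70 for ABL1 and 0.57 to 0.64 for RBBP8. With GAPDH alone as reference they were 0.56 for ABL1 (adjusted p = 0.108) and 0.47 for RBBP8 (adjusted p = 0.0667).

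The partners MRE11A and NBN had lower means with both inhibitors, and neither passed the test. MRE11A, the nuclease, stood at 2.69% and 1.86% of the reference level with SPHK1-I, 2.99% and 2.49% with SPHK2-I and 3.19% and 3.36% with vehicle. All 4 inhibitor samples were below both vehicle samples. Its change was −0.55 with SPHK1-I (SE 0.21, adjusted p = 0.0800) and −0.27 with SPHK2-I (SE 0.21, adjusted p = 0.366).

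NBN, whose product nibrin brings ATM to the complex, stood at 4.19% and 3.24% with SPHK1-I, 3.88% and 3.55% with SPHK2-I and 5.26% and 5.38% with vehicle. Again all 4 inhibitor samples were below both vehicle samples. Its change was −0.53 with SPHK1-I (SE 0.18, adjusted p = 0.0510) and −0.52 with SPHK2-I (SE 0.18, adjusted p = 0.0662). Without SPHK1-I sample 2 the changes with SPHK1-I were −0.29 for MRE11A and −0.35 for NBN. The difference between the inhibitors was 0.29 for MRE11A (95% interval −0.22 to 0.79, adjusted p = 0.357; 0.0218 without SPHK1-I sample 2) and 0.01 for NBN (−0.41 to 0.43, adjusted p = 0.961; −0.17 without that sample). The main fit also shares the spread of the SPHK1-I samples. With only the vehicle and SPHK2-I samples fitted by limma, 42 of the 84 genes were called lower with SPHK2-I. MRE11A (−0.27, adjusted p = 0.0409) and NBN (−0.52, adjusted p = 5.4e-05) were among them. With only the vehicle and SPHK1-I samples fitted by limma, 11 of the 84 genes were called lower with SPHK1-I. MRE11A (−0.55, adjusted p = 0.149) and NBN (−0.53, adjusted p = 0.118) were not among those.

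**Figure D3:**
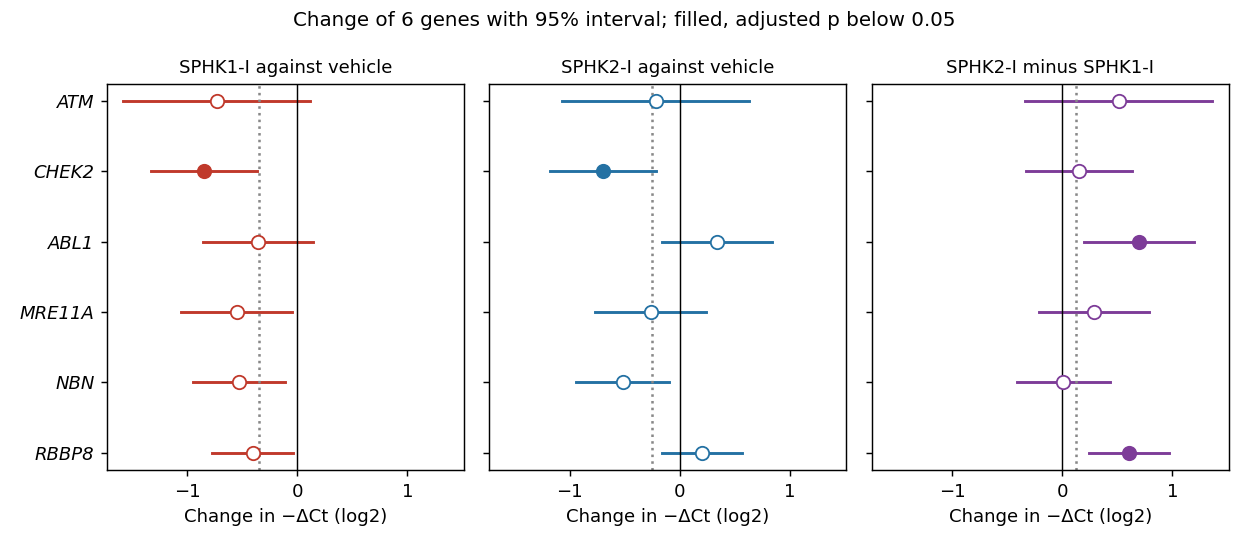
Change of each gene in −ΔCt (log2, horizontal axis) for the 3 comparisons, with 95% intervals from limma, filled points at an adjusted p below 0.05 and a dotted line at the median of the 84 genes. CHEK2 is filled against vehicle with both inhibitors (−0.85 and −0.70), and ABL1 and RBBP8 for the difference (0.70 and 0.61).

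Read against the array, the number of members called was not high. With SPHK1-I against vehicle, 1 of 6 members was called lower, against 31.0% of the 84 genes, and 0 of 6 higher, against 4.76%. At an unadjusted p below 0.05 there were 4 members, all lower, against 45.2% of the genes in either direction. The test of the methods called 1 member (RBBP8) at an unadjusted p below 0.05, against 21 of the 84 genes. After adjustment it called 0 members and 0 genes. The samples of 4 of 6 members were fully below vehicle, against 57.1% of the genes, and of 0 members fully above, against 11.9%. All 6 changes were below 0, as were those of 63 of the 84 genes, and the median was −0.54 for the members and −0.35 for the array.

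With SPHK2-I against vehicle, 1 of 6 members was called lower, against 23.8% of the genes, and 0 higher, against 4.76%. At an unadjusted p below 0.05 there were 2 members, CHEK2 and NBN, against 40.5% of the genes. The test of the methods gave 2 members unadjusted, against 41 of the 84 genes, and 0 adjusted, against 1 gene. The samples of 4 members were fully below vehicle, against 60.7% of the genes, and those of ABL1 and RBBP8 fully above, against 25.0%. The median was −0.24 for the members and −0.25 for the array.

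For SPHK2-I minus SPHK1-I, 2 of 6 members were called higher, against 15.5% of the genes, and 0 lower, also against 15.5%. The same 2 members were those at an unadjusted p below 0.05, against 39.3% of the genes. The test of the methods gave 1 member unadjusted, against 17 of the 84 genes, and 0 members and 0 genes adjusted. The SPHK2-I samples of ABL1 and RBBP8 were fully above those of SPHK1-I, against 34.5% of the genes. No member was fully below (0 of 6), against 23.8%. The median was 0.40 for the members and 0.13 for the array.

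**Figure D4:**
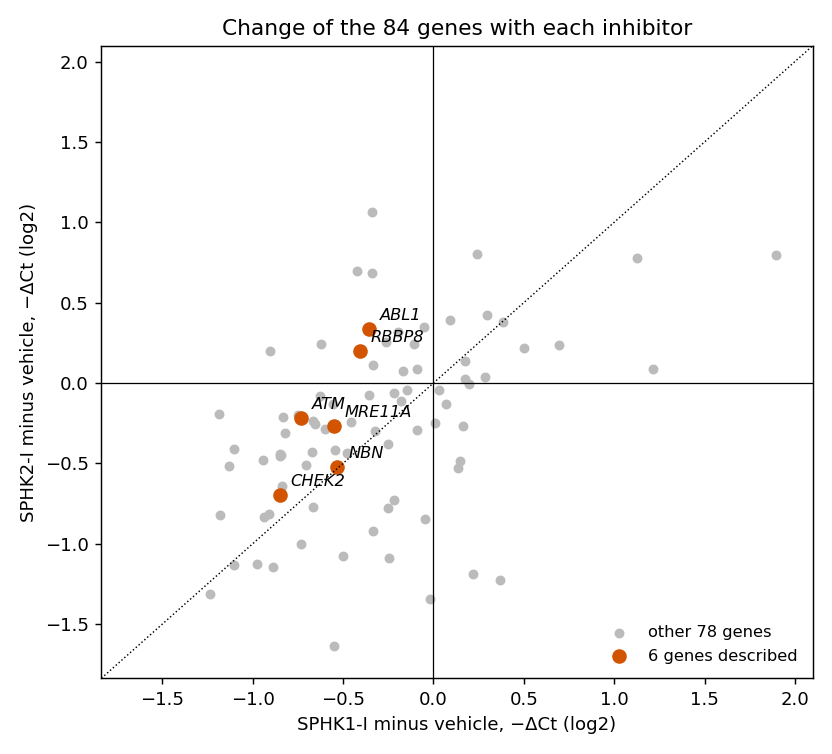
Change of the 84 genes in −ΔCt (log2) with SPHK1-I (horizontal axis) and with SPHK2-I (vertical axis), both against the same 2 vehicle samples, with the 6 genes described in orange. ABL1 (−0.36 and 0.34) and RBBP8 (−0.41 and 0.20) lie in the upper left, and the other 4 genes are below 0 on both axes.

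The reference genes themselves did not keep one level. On the −ΔCt scale and against vehicle, B2M stood at 0.61 in SPHK1-I cells and 0.42 in SPHK2-I cells, HPRT1 at −0.35 and −0.52, GAPDH at −0.29 and −0.15, ACTB at −0.29 and −0.55, and RPLP0 at 0.04 and 0.25 in the same comparisons. A different reference adds the same amount to all 84 genes. With B2M alone, all 6 members were called lower in SPHK1-I cells (68 of the 84 genes were) and 4 in SPHK2-I cells (57 of the 84 genes). ABL1 (−0.10) and RBBP8 (−0.23) then lay below 0 in SPHK2-I cells. With HPRT1 alone, 0 members were called with SPHK1-I (14 of the 84 genes were). ABL1 (0.85) and RBBP8 (0.72) were called higher with SPHK2-I, among 25 of the 84 genes called higher. The median of the 84 genes was at −0.95 and −0.68 with B2M alone and at 0.01 and 0.26 with HPRT1 alone. Relative to that median, CHEK2 stood at −0.50 in SPHK1-I cells and at −0.45 in SPHK2-I cells with the authors' reference, and ABL1 at −0.01 and 0.59.

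**Figure D5:**
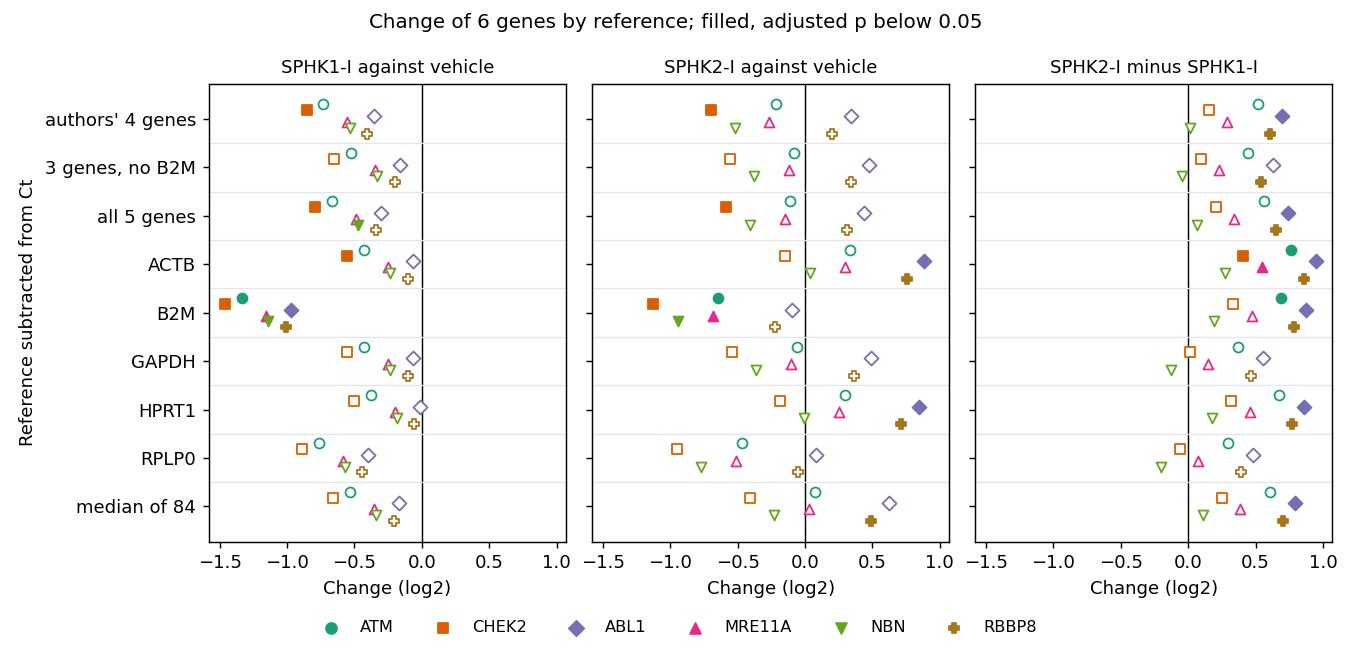
Change of the 6 genes (log2, horizontal axis) under 9 references (vertical axis) for the 3 comparisons, filled at an adjusted p below 0.05. CHEK2 stays below 0 against vehicle under all 9, whereas ATM and MRE11A with SPHK2-I lie above 0 with ACTB, with HPRT1 and with the median of the 84 genes.

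The difference of 2 genes within a sample does not depend on the reference, and is given here as a description chosen after the values were seen. CHEK2 minus ABL1 was 0.21 and 0.21 with SPHK1-I, −0.34 and −0.32 with SPHK2-I and 0.76 and 0.64 with vehicle, on the log2 scale of assay signals. The 3 groups did not overlap, and only with SPHK2-I was ABL1 the higher signal. NBN minus RBBP8 was 0.48 and 0.05 with SPHK1-I, −0.31 and −0.36 with SPHK2-I and 0.46 and 0.31 with vehicle. SPHK2-I was apart from the others, and SPHK1-I overlapped with vehicle. MRE11A minus NBN, the pair that works in 1 complex, was −0.64 and −0.80 with SPHK1-I, −0.38 and −0.51 with SPHK2-I and −0.72 and −0.68 with vehicle.

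Of the 15 pairs of members, 5 did not overlap between SPHK1-I and vehicle (65.5% of all 3486 pairs on the array), 14 between SPHK2-I and vehicle (85.1%) and 6 between SPHK2-I and SPHK1-I (69.4%). CHEK2 was lower than vehicle relative to ABL1, MRE11A, NBN and RBBP8 with SPHK1-I, and relative to all 5 other members with SPHK2-I.

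Over the 6 samples, the gene whose level was most like that of each member, by Pearson's r of −ΔCt, was CDK8 for ATM (0.995), KPNA2 for CHEK2 (0.986), RAD17 for ABL1 (0.990), RB1 for MRE11A (0.988), CDK1 for NBN (0.995) and RAD9A for RBBP8 (0.950). Those next in order were ATR for ATM (0.969), CDK1 for CHEK2 (0.982), CDC16 for ABL1 (0.976), RBL1 for MRE11A (0.985) and KPNA2 for NBN (0.992). Among the members themselves, r was 0.98 for CHEK2 with NBN and 0.84 for ABL1 with RBBP8, but 0.18 for NBN with RBBP8. The 6 samples share a reference and 3 treatments, and these values are descriptions.

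The parallel ATR arm of the checkpoint, which answers to stalled replication, had 6 genes on the array. With SPHK1-I, 2 of the 6 fell, against 31.0% of the 84 genes: RAD9A (−0.90, adjusted p = 0.0114), a subunit of the clamp that loads at damage, and CHEK1 (−0.84, adjusted p = 0.0352), the kinase that ATR phosphorylates. With SPHK2-I none of the 6 was called (0 of 6, against 23.8% of the genes lower and 4.76% higher, and 1, CHEK1, at an unadjusted p below 0.05). Over 8 other references 0 to 3 were called lower and 0 to 4 higher with SPHK2-I, and the list's median was −0.42 to 0.57. RAD9A was 1.11 higher with SPHK2-I than with SPHK1-I (adjusted p = 0.0103), the 1 call of that list for the difference (15.5% of the genes higher). The list's median stood at −0.31 for SPHK1-I and 0.02 for SPHK2-I, beside −0.35 and −0.25 over the array.

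Of 6 genes for substrates of ATM or CHK2, 3 fell with SPHK1-I (31.0% of the 84 genes did), and 1 fell and 1 rose with SPHK2-I (23.8% and 4.76% of the genes). CDC25A, the phosphatase that CHK2 marks for destruction, changed by −1.24 with SPHK1-I (adjusted p = 0.0311) and −1.31 with SPHK2-I (adjusted p = 0.0317). CDC25C, the phosphatase that activates CDK1, changed by −0.70 with SPHK1-I (adjusted p = 0.0153) and was −0.51 with SPHK2-I (adjusted p = 0.0557). For the difference, 1 gene of the list was called higher, against 15.5% of the genes. The list's median stood at −0.63 for SPHK1-I and −0.29 for SPHK2-I.

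Of 4 genes for recombination after trimming, 1 of which is also in the substrate list, 3 fell with SPHK1-I (31.0% of the genes) and 1 with SPHK2-I (23.8%), and the medians were −0.64 and −0.27. BCCIP, which binds a recombination mediator, was the call with SPHK2-I (−0.92, adjusted p = 0.0106), with −0.34 for SPHK1-I (adjusted p = 0.199), and its difference of SPHK2-I minus SPHK1-I was −0.58 (adjusted p = 0.0465). 1 other gene of that list was called higher for the difference, for which 15.5% of the genes were called lower and 15.5% higher.

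Of 4 CDK and cyclin genes of S and G2 phase, whose kinases phosphorylate CtIP, 2 fell with SPHK1-I (31.0% of the genes) and all 4 with SPHK2-I (23.8%), with medians of −0.73 and −1.10. CCNB1, cyclin B1, was −0.55 with SPHK1-I (adjusted p = 0.118) and changed by −1.64 with SPHK2-I (adjusted p = 0.00687). CDK1 changed by −1.10 (adjusted p = 0.0153) and −1.13 (adjusted p = 0.0116) in the same comparisons. CCNA2 and CCNB1 were the 2 called for the difference, both lower with SPHK2-I, against 15.5% of the genes lower and 15.5% higher. Of the 3 pocket protein genes, 1 fell with SPHK1-I (31.0% of the genes), and none was called with SPHK2-I or for the difference (0 of 3 in each, also at an unadjusted p below 0.05). The medians of the pocket protein list were −0.60 with SPHK1-I and −0.29 with SPHK2-I. Without SPHK1-I sample 2, the medians with SPHK1-I were −0.21 for the ATR list, −0.43 for the substrate list and −0.42 for the recombination list. They were −0.58 for the CDK and cyclin list and −0.36 for the pocket protein list. Over 8 other references, the number of these genes that fell with SPHK2-I ranged from 2 to 4 for the CDK and cyclin list and from 0 to 5 for the substrate list. The median with SPHK2-I was above 0 with ACTB, HPRT1 or the median gene as reference for the substrate, recombination and pocket protein lists, and below 0 under all 8 for the CDK and cyclin list (−1.53 to −0.55). In cells given SPHK1-I, the number that fell reached 0 in each list under at least 1 of the 8.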

How the data were processed

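A SYBR qPCR array of 84 cell cycle genes was run on 6 HMC-1.2 samples. The authors' Ct and ΔCt tables are on a log2 scale and come from the web tool of the array's maker (version not given in the sources used here). A deposited table of relative levels gives the ratio of each gene to the reference, which equals 2 raised to −ΔCt. The ΔCt reference was identified from the values as B2M, GAPDH, HPRT1 and RPLP0. The authors' fold tables hold their own comparisons and were not used. All 84 genes matched the RefSeq table (GRCh38.p14) by accession, and 1 is renamed (MRE11A, now MRE11). That table was used for names, and the RefSeq promoter table for sequences.

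−ΔCt was tested with limma 3.58.1 in R 4.3.3 (3 groups in 1 model, 3 residual and 4.33 prior degrees of freedom, no replicate block), with Benjamini-Hochberg adjustment over the 84 genes. The members and lists were chosen with earlier results of these data known. Beside all 6 members, the genes named are at most 4 per list, those with the smallest p, and the 2 most like each member. Some genes are not reported here. With 2 samples a group, an exact permutation test cannot go below p = 0.333. The code was tested on simulated data in which all groups of a gene had the same spread. The wider spread of the SPHK1-I samples was not simulated, so error rates under it were not tested.

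Alternatives were other references, Ct limits, each sample left out, a fit with the replicate number as block, fits of 2 groups at a time, trended and robust limma, and the methods' unpaired test. A reference without B2M and sample weights were chosen after seeing the data. The number of samples limits the precision.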

Additional observations from a re-analysis of the deposited data

Results flagged for a closer look

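ABL1 and RBBP8 were picked out because the effects of the inhibitors on them differed by a direct test, at different doses. ABL1 was 0.70 higher on the log2 scale with SPHK2-I than with SPHK1-I (limma, adjusted p = 0.0427, both SPHK2-I samples above both SPHK1-I samples), and RBBP8 0.61 higher (adjusted p = 0.0287, likewise). The reference genes of SPHK1-I sample 2 were at a mean Ct of 24.3, and without that sample the differences were 0.43 for ABL1 and 0.64 for RBBP8. Both calls ended with a replicate block (adjusted p = 0.0508 for both) and with only the groups compared (adjusted p = 0.115 for ABL1 and 0.0795 for RBBP8). They also ended with GAPDH (0.108 and 0.0667) or RPLP0 (0.544 for both) alone as reference. No group had enough samples for a check of single outlying values.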

How the results depend on the processing

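Main counts of called members and of called genes were 1 and 30 for SPHK1-I against vehicle, 1 and 24 for SPHK2-I against vehicle, and 2 and 26 for SPHK2-I minus SPHK1-I. Most counts moved with the settings, and the causes were not tested. With 1 sample left out the members called ranged over 0 to 6, 0 to 4 and 0 to 5 in these comparisons, and the genes over 0 to 64, 0 to 55 and 0 to 61. A group then left with 1 sample is assumed to vary like the others.

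For SPHK1-I against vehicle, the members called were 2 with all 5 housekeeping genes, 6 with B2M alone, 0 with GAPDH, HPRT1, RPLP0 or the median gene as reference, 0 with Ct above 30 set to 30, 2 without genes at Ct 35, 2 without genes of mean Ct above 30, 0 with only the groups compared, 3 with trend and robust settings, 0 by the methods' test after adjustment on either scale and 0 unadjusted on relative levels, 0 without B2M and 2 with sample weights. The genes called were 34 with all 5 housekeeping genes, 71 with B2M alone, 8 with GAPDH, 14 with HPRT1 and 1 with RPLP0. They were 15 with the median gene, 13 without B2M, 15 of 75 with Ct set to 30 and 13 with only the groups compared. They were 34 of 83 without genes at Ct 35 and 29 of 69 without genes of mean Ct above 30. Trend and robust settings gave 33 genes and sample weights 34. The adjusted methods' test gave 0 on either scale (21 and 22 unadjusted).

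For SPHK2-I against vehicle, the members called were 2 with ACTB, 4 with B2M, 0 with GAPDH, 2 with HPRT1, 0 with RPLP0, 0 with Ct set to 30, 4 with only the groups compared, 0 with trend and robust settings, 2 by the unadjusted and 0 by the adjusted methods' test on either scale, 0 without B2M and 3 with sample weights. The genes called were 27 with ACTB, 58 with B2M alone, 26 with GAPDH, 34 with HPRT1 and 17 with RPLP0. They were 21 without B2M, 20 of 75 with Ct set to 30, 55 with only the groups compared and 50 with sample weights. Trend and robust settings gave 26 genes. The unadjusted methods' test gave 41 on either scale, and the adjusted one 1 on the log2 scale and 17 on relative levels.

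For the difference, the members called were 5 with ACTB, 0 with GAPDH, 0 with RPLP0, 1 with Ct set to 30, 0 with only the groups compared, 1 with trend and robust settings, 1 by the unadjusted and 0 by the adjusted methods' test on either scale, 1 without B2M and 1 with sample weights. The genes called were 40 with ACTB, 3 with RPLP0, 0 with only the groups compared, 17 by the unadjusted methods' test, 0 by the adjusted one on either scale and 16 with sample weights.

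Same-numbered samples did not deviate together (r of −0.258, −0.105 and −0.041 across genes), so they were not taken as pairs. With a replicate block, 1 member was called with each inhibitor, and the difference had 0 members (adjusted p = 0.0508 for both ABL1 and RBBP8) and 14 genes.

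Of 444 alternative values of single members, 322 kept direction and call and 21 changed sign. With SPHK2-I, ATM was at 0.34 with ACTB, 0.30 with HPRT1 and 0.0725 with the median gene, MRE11A at 0.30, 0.26 and 0.0325, NBN at 0.035 with ACTB, ABL1 at −0.10 and RBBP8 at −0.23 with B2M, and RBBP8 at −0.05 with RPLP0. With Ct above 30 set to 30, ABL1 was at 0.56 with SPHK1-I, and the differences were −0.23 for ABL1 and −0.66 for CHEK2; this limit raises the levels of SPHK1-I sample 2 most by its construction, as it had the most genes above 30. The difference was −0.06 for CHEK2 with RPLP0. For NBN it was −0.13 with GAPDH, −0.20 with RPLP0, −0.0483 without B2M and −0.0534 without SPHK2-I sample 1. With 1 sample left out it ranged from −0.0923 to 1.12 for ATM, −0.11 to 0.42 for CHEK2 and −0.17 to 0.20 for NBN, each lowest without SPHK1-I sample 2 and highest without SPHK1-I sample 1. ATM gave no value with the limit at 30 or without genes of mean Ct above 30. The late Ct of ATM limits what can be said of it.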
